A study of Mus musculus with 72 samples.

Results

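Among the 72 arrays of mouse adipose tissue in this series, 5 stood apart by a high signal of *Cdkn2a*, and they are described here against 8 arrays that, like them, had lost most of the brown adipocyte signal of *Ucp1*. The sets were formed by measured values of *Ucp1* and *Cdkn2a* and not by labels. From the 72 arrays, 16 named ones, all with a signal of mesothelial genes, were left out first. Of the rest, 43 had a log2 signal of *Ucp1* of 9 or more. Of the 13 that remained, 5 had a log2 signal of *Cdkn2a* above 8 (Cdkn2a-high arrays) and 8 had one below 8 (other Ucp1-low arrays). The sets were thus selected on *Cdkn2a* and *Ucp1*, and because a choice by expression carries every co-varying gene with it, no gene was tested between them. All differences between both sets are descriptions, given as differences of medians on the log2 scale with the range over arrays.

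The series compared mice on a C57BL/6J background that lacked adipose triglyceride lipase (ATGL, encoded by *Pnpla2*), hormone-sensitive lipase (HSL, encoded by *Lipe*) or both in adipose tissue. HSLAKO mice carried 2 floxed *Lipe* alleles, and DAKO mice were obtained by crossing ATGLAKO with HSLAKO mice. Cre came from a transgene under the *Fabp4* promoter, active in adipocytes, and controls carried this transgene too. All 13 arrays are labelled HSLAKO or DAKO, and none is labelled control or ATGLAKO. The rule shaped this, because the 16 arrays left out first also had low *Ucp1* and are all labelled control or ATGLAKO. Low *Ucp1* in this series was therefore not confined to labels with a deletion of *Lipe*. By their labels, the 5 Cdkn2a-high arrays were interscapular brown adipose tissue (BAT) of HSLAKO mice at 12 months (replicates 1 and 2), of DAKO mice at 7 months (replicates 3 and 4) and of a DAKO mouse at 12 months (replicate 1). The other 8 were HSLAKO BAT at 7 months (replicates 1 and 2) and 12 months (replicate 4), DAKO BAT at 12 months (replicates 2 and 4) and 14 months (replicates 4 and 5), and DAKO perigonadal white adipose tissue (WAT) at 3 months (replicate 2). The protocol states that both tumor and non-tumor BAT were sampled, but no label says which array held a tumor. The study's figures present 14 months as the tumor stage and 12 months as late tissue before tumor. It also reports raised *Cdkn2a* and *Cdkn2b* as a late change seen in DAKO liposarcomas only. Yet of the 5 arrays labelled DAKO BAT at 14 months, 0 are Cdkn2a-high, which differs from that report if the labels hold. The labels at 7 months and of HSLAKO lie outside the age or genotype for which the study describes liposarcoma. Here every array is therefore called by its label, and no array was moved to another group.

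*Cdkn2a* encodes p16Ink4a, an inhibitor of the cyclin D kinases Cdk4 and Cdk6 that keeps the retinoblastoma protein active, and, from a separate first exon, Arf, an inhibitor of Mdm2 and thereby an activator of p53. *Cdkn2b*, the neighboring gene, encodes p15Ink4b, another inhibitor of these kinases. Both genes are known to be switched on by oncogenic signaling and in senescence, and *CDKN2A* is often lost or highly expressed in human tumors. *Ucp1* encodes the mitochondrial uncoupling protein of brown adipocytes. *Esm1* encodes endocan, a proteoglycan secreted by activated endothelium and by some tumor cells.

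*Cdkn2a* and *Cdkn2b* lie next to each other on the minus strand of chromosome 4 (GRCm38.p6, sequences from RefSeq), and the 250 bases before their start sites and before that of *Esm1* are shown because these genes set the 5 arrays apart from the other arrays of the series. *Cdkn2b* starts at the higher coordinates (chr4:89311033-89311282), followed by the upstream start of *Cdkn2a*, from which Arf is read (chr4:89294620-89294869), and by its downstream start, from which p16Ink4a is read (chr4:89282193-89282442). The window of *Esm1* lies on the plus strand (chr13:113209409-113209658). Capitals mark matches, on either strand, to the GC box GGGCGG, to CCAAT or to the cAMP response element TGACGTCA, and these motifs do not overlap each other here.
Cdkn2b: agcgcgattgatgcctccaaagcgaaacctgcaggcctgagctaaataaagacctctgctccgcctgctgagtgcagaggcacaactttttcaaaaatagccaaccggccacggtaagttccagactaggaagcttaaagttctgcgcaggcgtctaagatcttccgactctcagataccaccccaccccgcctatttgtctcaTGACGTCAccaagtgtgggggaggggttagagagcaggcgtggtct
Cdkn2a, upstream start: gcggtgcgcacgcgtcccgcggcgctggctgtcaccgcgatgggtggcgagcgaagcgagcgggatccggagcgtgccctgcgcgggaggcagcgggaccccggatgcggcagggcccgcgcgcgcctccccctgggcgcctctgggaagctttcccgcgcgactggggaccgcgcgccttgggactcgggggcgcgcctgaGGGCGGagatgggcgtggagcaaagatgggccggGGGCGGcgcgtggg
Cdkn2a, downstream start: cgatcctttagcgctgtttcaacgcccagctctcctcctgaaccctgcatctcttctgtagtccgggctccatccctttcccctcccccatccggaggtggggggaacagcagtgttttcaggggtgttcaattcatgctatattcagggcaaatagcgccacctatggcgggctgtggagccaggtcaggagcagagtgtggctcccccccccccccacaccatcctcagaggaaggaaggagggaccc
Esm1: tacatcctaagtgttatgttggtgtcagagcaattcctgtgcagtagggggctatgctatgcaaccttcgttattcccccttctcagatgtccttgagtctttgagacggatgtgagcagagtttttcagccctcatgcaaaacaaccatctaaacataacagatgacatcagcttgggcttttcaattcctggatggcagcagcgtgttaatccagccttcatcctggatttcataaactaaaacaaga
The window of *Cdkn2b* held 1 cAMP response element, which begins 46 bases before the start, and no GC box. The upstream window of *Cdkn2a* held 2 GC boxes, beginning 48 and 14 bases before the start, among 40 CpG dinucleotides. The downstream window held 7 CpG dinucleotides and, like that of *Esm1* with 3, no match to these motifs. Among the 12607 windows of 9866 measured genes, 51.5% held a GC box, 34.6% CCAAT and 2.16% the cAMP response element. A match describes the letters only. The probe annotation gives the gene *Cdkn2a* and no transcript, so p16Ink4a and Arf cannot be told apart on these arrays.

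The 5 Cdkn2a-high arrays are given below in a fixed order: HSLAKO 12 months replicates 1 and 2, DAKO 7 months replicates 3 and 4, and DAKO 12 months replicate 1. In that order the log2 signals of *Cdkn2a* were 10.64, 9.43, 10.44, 9.71 and 9.30. On the other 8 arrays *Cdkn2a* ran from 4.31 to 5.72 (median 4.77). The limit of 8 thus fell in a wide gap, between 5.72 and 9.30, and the limit of 9 for *Ucp1* fell between 7.79 and 11.35. Neither gene had an array near its limit. *Cdkn2a* was above background, at a detection p under 0.05, on 5 of the 8 other arrays and on 0 of the 59 remaining arrays of the series, where it reached at most 4.57. Its second probe had the same pattern, with a difference of medians of 4.26 against 4.95 for the probe of the rule.

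**Figure D1:**
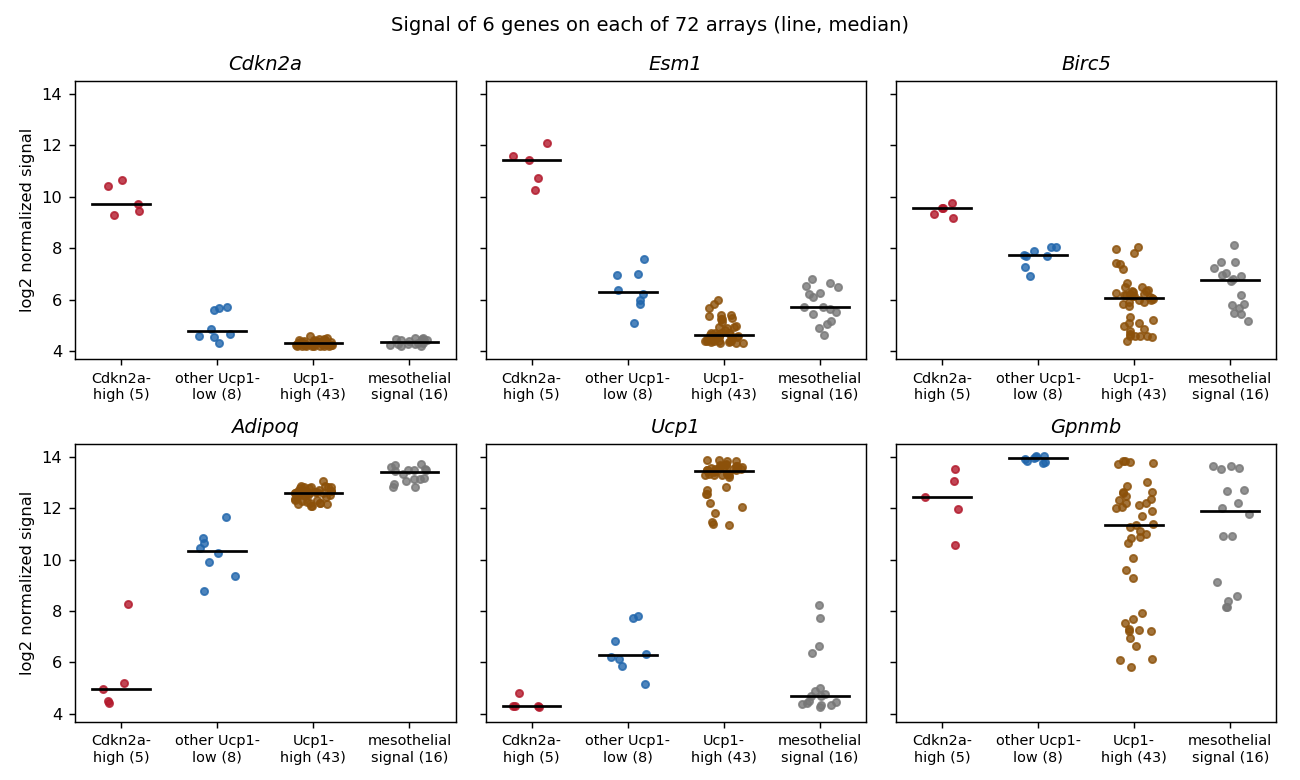
Log2 normalized signal of *Cdkn2a*, *Esm1*, *Birc5*, *Adipoq*, *Ucp1* and *Gpnmb* on each of the 72 arrays, in 4 sets with their number of arrays, and the median of each set as a line. The 5 Cdkn2a-high arrays lie above all 67 others for *Cdkn2a* (9.30 and higher) and *Esm1* (10.26 and higher) and below all others for *Adipoq* (8.27 and lower).

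*Ucp1* was above background on 1 of the 5 Cdkn2a-high arrays (4.29, 4.26, 4.81, 4.29 and 4.30) and on all 8 others (5.17 to 7.79, median 6.27). Control BAT at 3 months had 13.61 to 13.82 (n = 5), so both sets were far below normal BAT. *Esm1* was 12.09, 11.44, 10.26, 11.59 and 10.72 on the Cdkn2a-high arrays and 5.09 to 7.56 (median 6.29) on the others, a difference of medians of 5.15. The label check by the deleted genes was the same in both sets for HSL. *Lipe* was at 4.48 to 4.77 on the Cdkn2a-high arrays and at 4.61 to 5.70 on the others, against 9.31 to 9.95 in control BAT at 3 months. Every one of the 13 labels includes the deletion of *Lipe*. *Pnpla2* was 7.21, 8.13, 9.08, 8.68 and 8.84 on the Cdkn2a-high arrays, and 10.06 to 11.48 (median 11.10) on the others, with 12.91 to 13.31 in control BAT. Within the other set, the 3 arrays labelled HSLAKO (10.60 to 11.48) lay among those labelled DAKO. Within the Cdkn2a-high set, the 2 labelled HSLAKO (7.21 and 8.13) lay below the 3 labelled DAKO (8.68 to 9.08), although the HSLAKO label includes no deletion of *Pnpla2*. The positions of the probes relative to the deleted exons are not given in the sources used here, so these levels limit rather than settle the genotype.

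The share of probes above background overlapped between both sets, while the median raw signal nearly separated them. The median raw signal was 110.5 to 118.1 on the Cdkn2a-high arrays and 94.69 to 115.7 on the others, and 49.7 to 51.6% against 47.4 to 51.2% of the 25697 probes were above background. The raw signals overlapped only through DAKO BAT 12 months replicate 4 (115.7), and the rest of the other set was at 108.3 or lower. Whether this shaped any difference between the sets was not tested. Arrays that carried the same label fell into different sets. Of 4 arrays labelled DAKO BAT at 12 months, 1 was Cdkn2a-high, 2 were other Ucp1-low and 1 was Ucp1-high. Of 5 labelled DAKO BAT at 14 months, 0 were Cdkn2a-high, 2 were other Ucp1-low and 3 were Ucp1-high. Of 4 labelled HSLAKO BAT at 12 months, 2 were Cdkn2a-high. Across 12265 genes the 5 arrays correlated with each other at r = 0.96 to 0.98 (10 pairs), the other 8 at 0.93 to 0.99 (28 pairs), and arrays of different sets at 0.88 to 0.93 (40 pairs), so most pairs of 1 set were more alike than pairs of different sets, and no pair was identical.

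Of 12265 genes measured, 1217 (9.92%) had all 5 Cdkn2a-high arrays above all 8 others and 1162 (9.47%) had all 5 below. With medians more than 1.5 apart on the log2 scale as well, 299 genes (2.44%) were higher and 323 (2.63%) were lower. The median difference over all genes was -0.001. Of the 299 higher genes, 177 were also above each of the 59 remaining arrays of the series, including BAT and WAT of all 4 genotypes. Of the 323 lower genes, 96 were below each of those arrays. These percentages are the background against which the members of each gene list are read below.

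**Figure D2:**
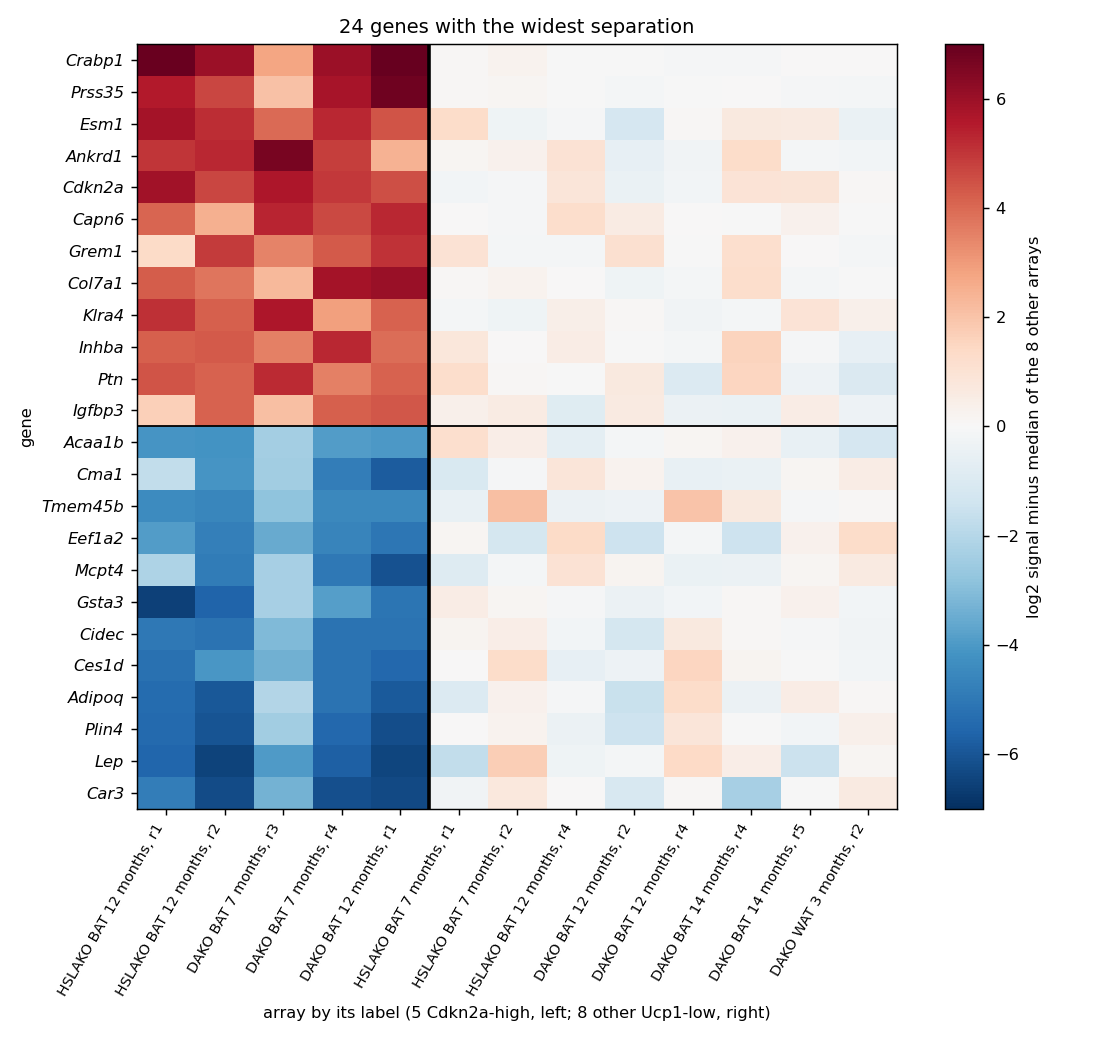
Log2 signal minus the median of the 8 other Ucp1-low arrays for the 12 genes with the largest difference of medians in each direction, among those without overlap, on the 5 Cdkn2a-high arrays (left of the line) and the 8 others (right). The higher genes reach a difference of 6.01 (*Crabp1*) and the lower genes -6.14 (*Car3*), and the array labelled DAKO BAT 7 months replicate 3 is paler than the other Cdkn2a-high arrays for most adipocyte genes.

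Of the higher genes, *Crabp1* had the largest difference of medians. It encodes a binding protein for retinoic acid. Its log2 signals were 11.28, 10.34, 7.15, 10.38 and 11.56 on the Cdkn2a-high arrays and 4.27 to 4.63 on the others, where it was above background on 0 of 8, so it was at least 42.8-fold higher. *Prss35*, a secreted member of the serine protease family, was 9.90, 9.06, 6.40, 10.14 and 11.16 against 4.22 to 4.52, at least 24.3-fold higher. For both genes DAKO 7 months replicate 3 was the lowest of the 5. *Ankrd1*, a nuclear ankyrin repeat protein known as a target of Yap, was 10.25, 10.52, 11.91, 10.09 and 7.72 against 4.67 to 6.54, and here that replicate was the highest. Next came *Capn6* (a calpain without protease activity), *Grem1* (a secreted antagonist of bone morphogenetic proteins), *Col7a1* (the collagen of anchoring fibrils), *Inhba* (the subunit of activin A), *Ptn* (the growth factor pleiotrophin) and *Igfbp3* (which binds insulin-like growth factors), with differences of 4.60, 4.27, 4.24, 4.17, 4.14 and 4.10. *Klra4*, a receptor of natural killer cells, had a difference of 4.20 with its main probe and 3.26 with another. It belongs to a family of near-identical Ly49 genes, so its probes may not tell the members apart.

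Some angiogenic factors were far apart between both sets, while each marker of endothelial cells overlapped. Of 24 measured genes of angiogenesis and endothelial tip cells, 5 were higher without overlap (*Esm1*, *Vegfc*, *Tnc*, *Ptn* and *Tnfrsf12a*) and 1 was lower (*Nrp1*), with a median difference of 0.74. Of these 6, 4 are genes that the study had picked from these samples, so their count is not independent evidence of a direction. *Tnfrsf12a*, the receptor of the cytokine TWEAK, was 11.10, 10.48, 11.04, 10.91 and 10.99, against 6.66 to 8.24 (median 7.65) on the others. It had the narrowest range of this group among the 5 arrays. *Ptn* was 10.79, 10.53, 11.63, 9.93 and 10.52 against 5.39 to 7.88. *Tnc*, the matrix protein tenascin C, was 10.69, 12.07, 11.14, 11.24 and 12.34 against 7.09 to 9.87. Of 16 measured markers of endothelial cells, 0 were higher and 0 lower without overlap, with a median difference of 0.02. The mean log2 level of this list was 8.28, 8.18, 7.26, 8.01 and 8.19 on the Cdkn2a-high arrays and 7.71 to 8.02 on the others. DAKO 7 months replicate 3 was thus below all 8 others, while the other 4 arrays lay at or above their upper end, and the 2 members with the widest difference pointed in opposite directions (*Egfl7* 1.27 and *Ramp2* -0.95). The part of endothelial RNA in the level of *Esm1* was not tested. In bulk tissue, more cells of a type and more RNA per cell cannot be told apart.

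Genes of cell division were higher as a group on the arrays with high *Cdkn2a*. Of 22 measured members of the proliferation list, 16 were higher without overlap and 0 lower, with a median difference of 1.19. *Cdc20*, an activator of the anaphase-promoting complex, was 10.16, 9.06, 10.38, 9.84 and 10.16, against 6.94 to 7.95 (median 7.36). *Prc1*, which bundles microtubules in the dividing cell, was 11.17, 9.91, 10.59, 10.72 and 10.74 against 8.54 to 9.36. HSLAKO 12 months replicate 2 was the lowest of the 5 for both. *Top2a*, encoding topoisomerase II, was 9.29, 8.00, 8.41, 9.11 and 9.06 against 6.66 to 7.77, and *Birc5*, encoding survivin, was 9.57, 9.16, 9.34, 9.77 and 9.55 against 6.92 to 8.05. The mean of the list was 7.65 to 8.35 on the Cdkn2a-high arrays, 6.75 to 7.21 on the other Ucp1-low arrays and 4.97 to 6.90 on the 43 Ucp1-high arrays.

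Beside *Cdkn2a*, 2 genes among 20 measured members of the list of Cdk inhibitors and the retinoblastoma pathway were higher without overlap. *Cdkn2b* was 10.28, 10.38, 10.52, 9.43 and 9.51, against 6.57 to 8.07 (median 7.71) on the other 8 arrays and at most 7.66 on the 59 remaining arrays. *E2f1*, a transcription factor released by phosphorylated retinoblastoma protein, differed by 0.65. *Rb1*, which encodes the retinoblastoma protein itself, was lower on all 5 arrays, at 7.50, 8.01, 7.55, 7.47 and 7.55 against 8.34 to 8.83. The list's median difference was 0.49. Of 14 measured regulators and targets of p53, 0 were higher and 5 lower without overlap, with a median difference of -0.48. *Trp53inp1*, a p53 target of the stress response, was 6.95, 6.85, 6.91, 6.36 and 7.09 against 8.24 to 9.97. *Ccng1*, encoding the p53 target cyclin G1, was 8.63 to 8.91 against 10.12 to 10.72. *Mdm2*, the ubiquitin ligase of p53, was 9.63, 9.89, 10.01, 9.40 and 9.77 against 10.07 to 10.75, lower by 0.53 at the medians. *Fas* and *Tnfrsf10b*, encoding death receptors, differed by -0.81 and -0.87. On 3 other probes of *Tnfrsf10b*, above background on at most 3 arrays, the differences were 0.05 to 0.24.

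**Figure D3:**
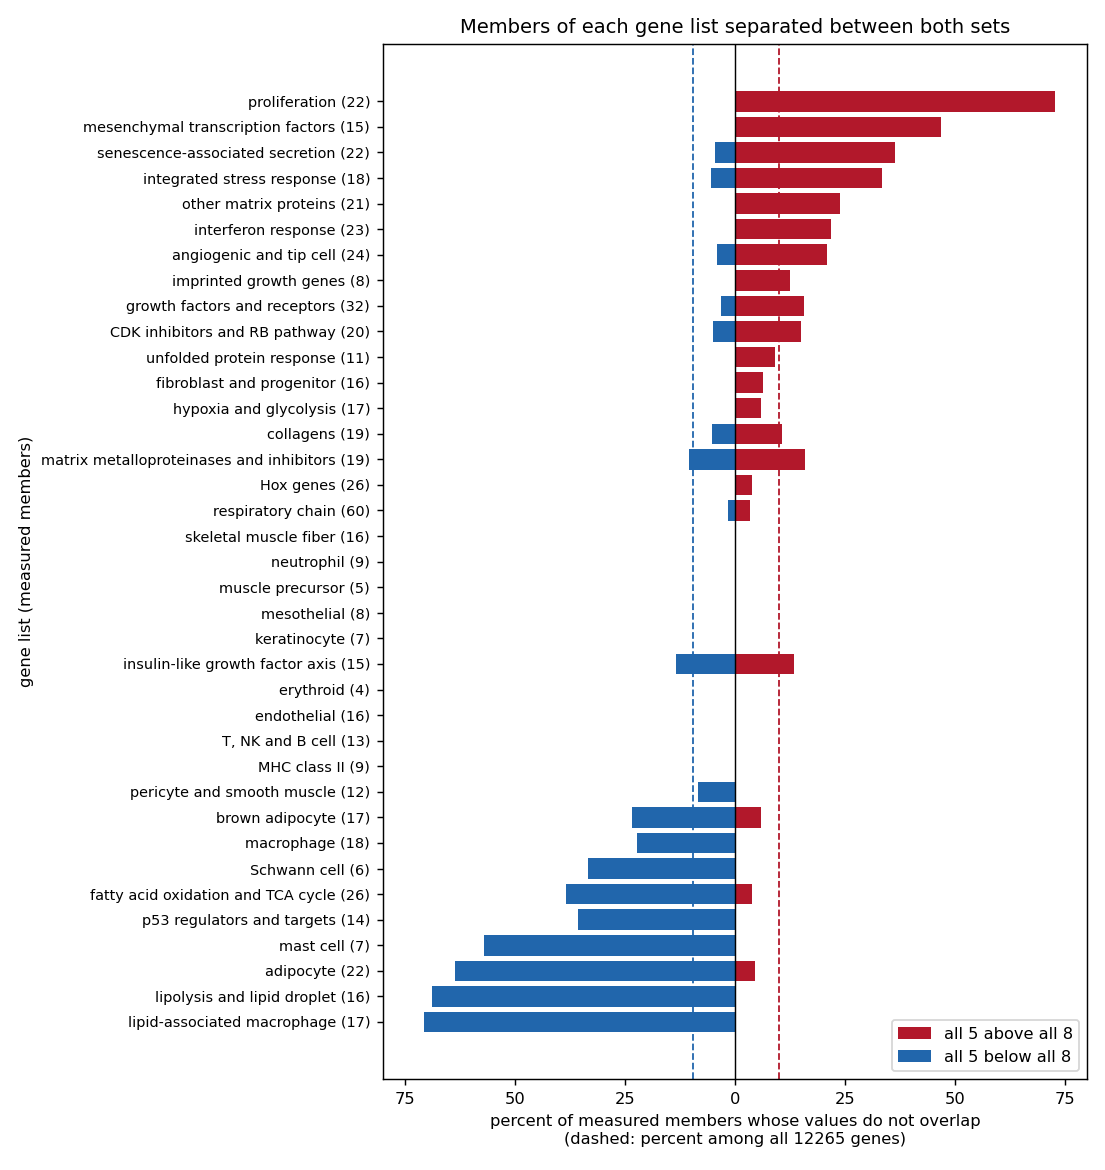
Percent of the measured members of each gene list (number in parentheses) whose values do not overlap between the 5 Cdkn2a-high and the 8 other Ucp1-low arrays, higher to the right and lower to the left of 0. Dashed lines mark the percent among all 12265 genes (9.92 higher and 9.47 lower), and the proliferation list reaches farthest to the right, with 16 of 22 members. Bars that hold *Cdkn2a* (Cdk inhibitors) or *Ucp1* count a gene on which the arrays were chosen.

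Transcription factors of mesenchymal cells were also higher: 7 of 15 measured members had no overlap (*Prrx1*, *Twist1*, *Twist2*, *Snai1*, *Sox9*, *Foxc2* and *Zeb1*), 0 were lower, and the median difference was 1.07. *Twist2* was 9.90, 9.25, 7.23, 10.37 and 10.52 against 5.63 to 6.50. *Sox9*, a factor of cartilage and of many progenitors, was 7.54, 8.08, 5.97, 7.92 and 7.64 against 4.28 to 5.11. DAKO 7 months replicate 3 had the lowest value of the 5 for both genes and for *Zeb1* and *Twist1*. *Twist1* differed by 2.13 and *Zeb1* by 2.11. Of 16 measured markers of fibroblasts and progenitors, 1 was higher without overlap. This was *Dlk1*, an inhibitor of adipocyte differentiation that is expressed in preadipocytes, at 10.86, 6.78, 5.11, 7.76 and 5.76. It was above background on 0 of the 8 other arrays. The mean of the 5 was at least 5.78-fold higher, a bound that does not hold for each array. The 5 arrays thus spanned more than 5 units in *Dlk1*. Of 26 measured Hox genes, 1 (*Hoxd4*, difference 1.09) was higher without overlap.

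Secreted factors and matrix genes differed in part. Of 22 measured members of the list of senescence-associated secretion, 8 were higher without overlap and 1 was lower, with a median difference of 1.41. *Inhba* was 9.28, 9.40, 8.62, 10.36 and 9.04 against 4.55 to 6.67. *Igfbp3* was 7.27, 9.72, 7.71, 9.82 and 9.94 against 4.75 to 6.23. *Ccl7*, a chemokine for monocytes, was 9.98, 9.64, 9.40, 9.58 and 9.38 against 5.77 to 7.77, with the 5 arrays within 0.6 of each other. The lower member, *Mmp12*, is a metalloproteinase made by macrophages and differed by -2.52. Of 32 measured growth factors and receptors, 5 were higher without overlap and 1 was lower, among them *Wnt5a* (difference 3.20), *Sfrp2* (2.90), a secreted binder of Wnt proteins, and *Hbegf* (2.08), a ligand of the epidermal growth factor receptor. In the insulin-like growth factor axis, 2 of 15 members were higher (*Igfbp3* and *Igfbp2*) and 2 lower, close to the background in both directions. *Igf1* itself was 8.05, 9.27, 9.25, 9.15 and 8.66 against 11.10 to 11.75 (difference -2.23), and *Igf2r*, a receptor that clears Igf2, differed by -1.31.

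Of 19 measured collagens, 2 were higher without overlap (*Col7a1* and *Col6a1*, differences 4.24 and 0.64) and 1 was lower (*Col15a1*, a collagen of basement membranes, -2.23), with a median of 0.21. That is close to the background in both directions. Of 21 other matrix genes, 5 were higher, among them *Loxl1* and *Loxl2*, which cross-link collagen and elastin (differences 1.56 and 1.62), and the laminin gene *Lamb1* (1.17). Of 19 metalloproteinases and inhibitors, 3 were higher and 2 lower, also near the background. *Mmp10*, encoding stromelysin-2, was 5.60, 6.94, 5.92, 7.50 and 11.24 against 4.39 to 5.07, with DAKO 12 months replicate 1 far above the rest. *Adamts4*, an aggrecanase, differed by 2.51. *Mmp14* and *Ptk7*, which the study names for DAKO mice, and *Pcolce*, which it follows in human tumors, overlapped between both sets (differences 0.73, 1.16 and 0.52).

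In the integrated stress response and serine synthesis, 6 of 18 measured members were higher without overlap and 1 was lower, with a median difference of 0.84. *Phgdh*, the first enzyme of serine synthesis, was 7.65, 7.21, 7.73, 7.88 and 7.92 against 5.02 to 5.89. *Asns*, encoding asparagine synthetase, was 10.58, 10.70, 11.43, 10.76 and 10.75 against 8.64 to 9.47. *Psat1*, which acts after *Phgdh*, differed by 1.68. The lower member was the stress-induced transcription factor *Atf3*, at 4.86, 6.97, 6.99, 8.08 and 6.54 against 8.61 to 10.61. Thus *Atf3* and the amino acid genes, which are all known targets of the same pathway, lay on opposite sides. Of 11 members of the unfolded protein response, 1 was higher (*Creld2*, difference 0.74), and of 17 of hypoxia and glycolysis, 1 (*Ndrg1*, 1.07).

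Adipocyte genes were lower as a group. Of 22 measured adipocyte genes, 14 were lower without overlap and 1 higher (*Acly*), with a median difference of -1.68. *Adipoq*, encoding adiponectin, was 4.97, 4.42, 8.27, 5.18 and 4.48 on the Cdkn2a-high arrays, 8.78 to 11.65 (median 10.34) on the other 8 and 12.63 to 12.87 in control BAT at 3 months. It was above background on 3 of the 5. *Lep*, encoding leptin, was 5.69, 4.80, 7.31, 5.54 and 4.84 against 9.52 to 12.98, and *Car3*, a carbonic anhydrase abundant in adipocytes, was 5.72, 4.25, 7.25, 4.39 and 4.22 against 8.22 to 11.30. In all 3 genes DAKO 7 months replicate 3 had the highest value of the 5. *Pparg*, the master regulator of adipocyte differentiation, was 5.16, 5.87, 7.72, 6.62 and 5.59 against 8.75 to 9.31. Other genes among the 12 with the largest differences were *Plin4* (a lipid droplet coat protein, -5.50), *Ces1d* (a carboxylesterase that hydrolyzes triglycerides, -5.15), *Cidec* (a protein of lipid droplet fusion, -5.14), *Gsta3* (a glutathione transferase, -5.10), *Tmem45b* (-4.49) and *Acaa1b* (a peroxisomal thiolase, -4.02).

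Of 16 measured genes of lipolysis and the lipid droplet, 11 were lower without overlap and 0 higher, with a median difference of -1.89. *Mgll*, encoding the lipase of the last step of lipolysis, was 6.25, 6.95, 7.43, 7.01 and 6.69 against 8.95 to 10.24. Its difference of -3.04 was thus found in a lipase that was not deleted. *G0s2*, encoding an inhibitor of ATGL, overlapped (5.32 to 6.79 against 5.65 to 7.63). Of 17 brown adipocyte genes, 4 were lower and 1 higher (*Eva1b*), with a median of -0.61. This count cannot be read apart from *Ucp1*, a brown adipocyte gene that the rule used and that was itself lower without overlap. *Ebf2*, a transcription factor of brown preadipocytes, was 4.47 to 4.94 against 6.38 to 6.92, and *Cidea* was 4.30, 4.76, 5.57, 4.34 and 4.35 against 5.88 to 7.73. *Cpt1b*, which brings fatty acids into mitochondria in brown fat and muscle, differed by -2.93, and *Cox8b* overlapped (4.29 to 6.01 against 5.69 to 11.89).

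Mitochondrial genes differed by pathway. Of 26 measured genes of fatty acid oxidation and the TCA cycle, 10 were lower without overlap and 1 was higher, with a median difference of -0.68, among them *Acadl* (-1.52), *Acadm* (-1.38) and *Hadhb* (-1.24), enzymes of the beta-oxidation spiral, and *Ogdh* of the TCA cycle (-1.15). Another probe of *Acadl* gave -1.49, and a further one was above background on 0 of the 13 arrays. Of 60 respiratory chain genes, by contrast, 2 were higher (*Atp5o* and *Cyc1*, 0.86 and 0.62) and 1 was lower (*Uqcrc2*, -0.55), both shares below the background, with a median of 0.01.

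**Figure D4:**
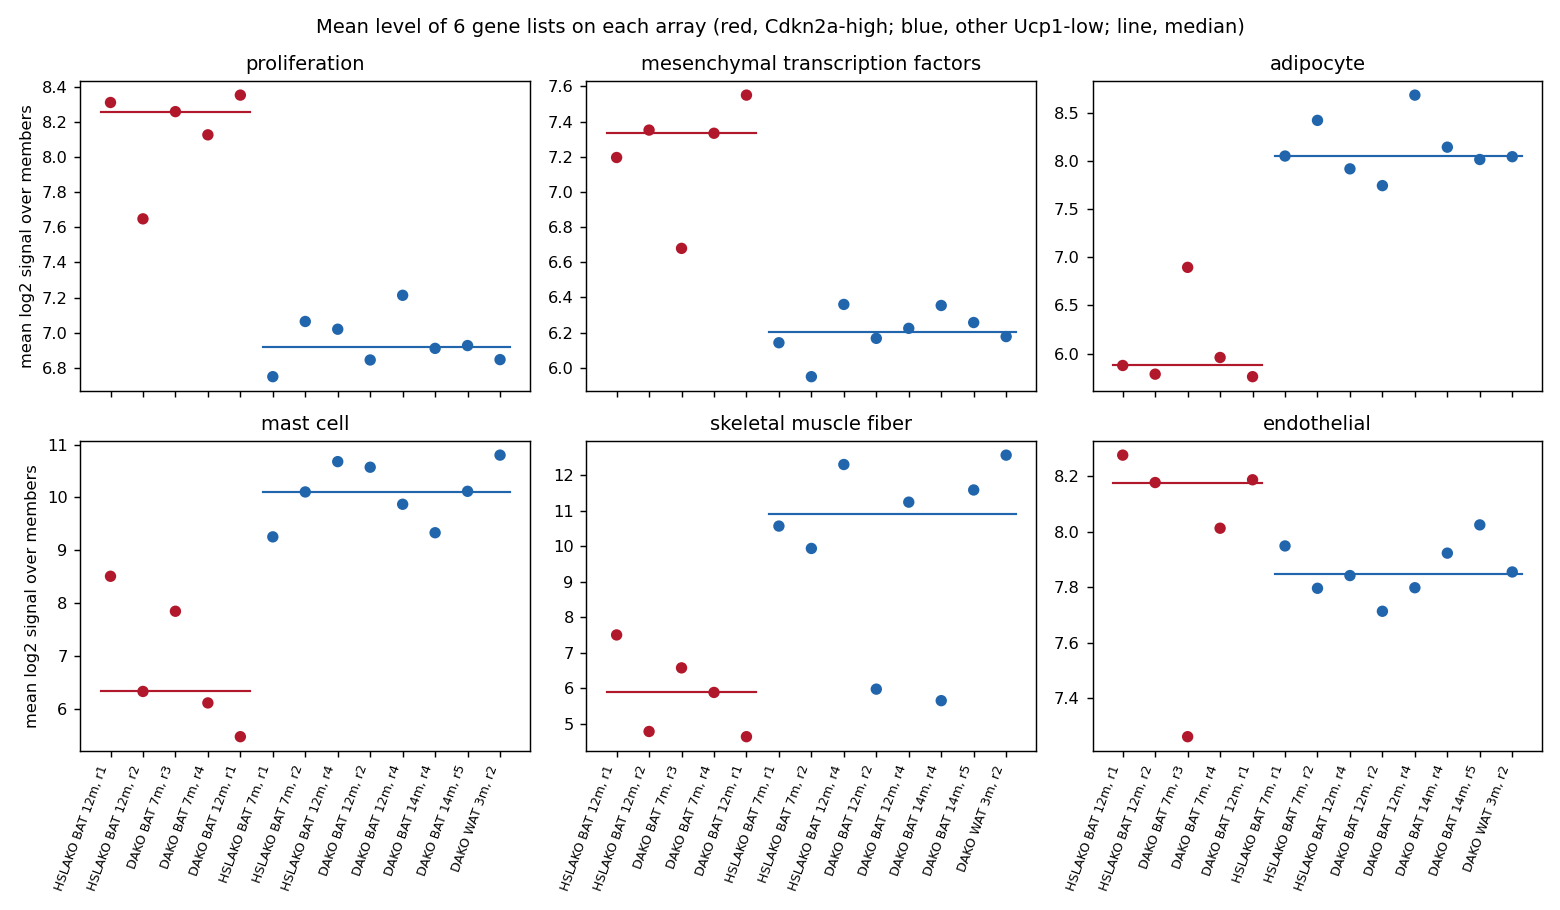
Mean log2 signal over the measured members of 6 gene lists on each of the 13 arrays (red, Cdkn2a-high; blue, other Ucp1-low), with the median of each set as a line. The sets are separated for proliferation, mesenchymal transcription factors, adipocyte and mast cell genes, while skeletal muscle genes run from 5.66 to 12.56 on the other arrays and overlap with the Cdkn2a-high arrays. Endothelial genes overlap through 1 low array (7.26) and a narrow margin between 8.01 and 8.02.

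Markers of other cells were measured for what the tissue pieces held. Mast cell genes were lower on the Cdkn2a-high arrays, with 4 of 7 members below without overlap and a median difference of -4.03. *Mcpt4*, a mast cell protease, was 8.67, 5.93, 8.48, 5.84 and 4.72 against 9.90 to 11.84, and *Cma1*, *Fcer1a* and *Tpsab1* differed by -4.14, -3.93 and -2.96. The mean of the list was 5.47 to 8.51 against 9.25 to 10.80, and the part of mast cells in other lower genes was not tested. *Mcpt4* was above background on 0 of 5 arrays of control BAT at 3 months, so the level on the other Ucp1-low arrays was itself above that of normal BAT. In macrophages, general markers differed little: 4 of 18 were lower without overlap (*Ctss* -1.21, *Cd53* -1.12, *Fcgr3* -0.82 and *Laptm5* -0.69), with a median of -0.41. Markers of lipid-associated macrophages, which gather around dying adipocytes, differed more, with 12 of 17 lower, 0 higher and a median of -1.50. *Gpnmb*, the glycoprotein that the study follows in plasma, was 10.58, 12.43, 13.52, 13.08 and 11.97 against 13.75 to 14.01, and 5.81 to 7.30 in control BAT at 3 months. The other Ucp1-low arrays were thus near the top of the scale, which was 14.26 on every array after normalization, and the difference of -1.50 of this probe may be too small. The 3 other probes of *Gpnmb*, which were dimmer and detected on all 8 other arrays, differed by -3.74, -4.02 and -3.63. Both sets lay above normal BAT on the probe that stands for the gene. The study proposes adipocytes as the likely main source of Gpnmb in DAKO mice, with macrophages as a possible minor one. Its place in this list therefore does not make it a measure of macrophages alone. *Clec7a*, a receptor for fungal glucans, *Lipa*, the lysosomal acid lipase, and *Lpl*, lipoprotein lipase, differed by -2.58, -2.23 and -3.26. *Lpl* also reached 13.85 to 14.04 on the other arrays, near the top of the scale, as did *Laptm5* (13.81 to 13.92), so their differences may be too small. On all 67 arrays outside the 5, *Lpl* was at 13.58 or more, while *Gpnmb* went down to 5.81. *Lpl* thus did not follow *Gpnmb* across the series, and which cells its RNA came from was not tested. A further probe of *Clec7a*, above background on 0 of the 13 arrays, gave 0.04.

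Skeletal muscle genes had the largest list difference, with a median of -5.37 over 16 members, yet 0 of them were free of overlap. The mean level of the list was 4.64 to 7.50 on the Cdkn2a-high arrays and 5.66 to 12.56 on the others, where 2 arrays (DAKO BAT 12 months replicate 2 and DAKO BAT 14 months replicate 4) were as low as the Cdkn2a-high arrays and 6 were high. *Pvalb*, parvalbumin of fast fibers, was 4.46 to 7.67 against 5.94 to 13.77, and *Atp2a1*, the calcium pump of the muscle reticulum, 4.47 to 8.52 against 6.41 to 13.64. *Eef1a2*, an elongation factor of muscle and neurons, had a difference of -4.64 without overlap. The part of muscle RNA in this and in the other lower genes was not tested. Mesothelial markers were near background in both sets (mean 4.36 to 4.97 and 4.33 to 4.42, against 6.20 to 7.77 on the 16 arrays left out), and 4 and 5 of the 8 markers were above background on no array of the respective set. The highest value was *Msln* at 8.12 on DAKO 7 months replicate 3. Neutrophil genes overlapped, although *S100a8* and *S100a9* reached 12.13 and 10.80 on DAKO 12 months replicate 1 (differences 2.87 and 4.73). Lists of T, NK and B cells, MHC class II, keratinocyte, erythroid and muscle precursor genes had 0 members without overlap. Of 6 Schwann cell genes, 2 were lower (*Mbp* -1.97 and *Pmp22* -1.44), and of 12 pericyte and smooth muscle genes, 1 (*Myh11*, -1.70).

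Of 23 measured interferon response genes, 5 were higher without overlap and 0 lower, with a median difference of 0.34. *Isg15* was 7.47, 7.36, 10.19, 7.82 and 7.97 against 5.23 to 6.15, *Ifit3* 8.74, 8.55, 10.27, 8.92 and 8.83 against 6.61 to 8.01, and *Usp18* 7.25, 6.82, 9.68, 7.08 and 7.23 against 5.17 to 6.49. DAKO 7 months replicate 3 had the highest value of all 13 in these 3 genes. *Cxcl10*, an interferon-induced chemokine, was 6.30, 6.45, 8.79, 7.15 and 8.46 against 4.32 to 5.26.

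That array differed from the other 4 in several of the groups above: it kept more adipocyte signal, had less *Crabp1*, *Prss35*, *Sox9* and *Zeb1*, and had more interferon response signal, while its *Cdkn2a* (10.44) was the second highest. Without it, 347 genes were higher and 359 lower by the same rule, against 299 and 323 with it. Leaving out any other of the 13 arrays gave 600 to 667 genes in all, against 622 with every array. For a gene without overlap, the sign inside a single label was fixed by the choice of arrays and genes, so only the sizes are given. Among the arrays labelled HSLAKO BAT at 12 months, the mean of 2 Cdkn2a-high arrays minus the 1 other Ucp1-low array was 4.45 for *Cdkn2a*, 5.57 for *Esm1*, 6.48 for *Crabp1* and -5.56 for *Adipoq*. Among those labelled DAKO BAT at 12 months, 1 Cdkn2a-high array minus the mean of 2 others gave 4.85, 4.98, 7.27 and -5.74 for the same genes. Arrays of 1 genotype, age and tissue label therefore held both patterns, and these small subsets carry no test. For arrays labelled DAKO and those labelled HSLAKO, taken separately, the difference of medians between both sets was 4.86 and 5.36 for *Cdkn2a* and -5.88 and -5.69 for *Lep*. These signs were fixed in the same way, and whether the sizes differ by genotype was not tested.

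Grouping by label uses no measured value and can be tested, and the test asks what accompanied age and tumor onset in DAKO BAT. In limma's linear model of all 72 arrays in 17 labelled groups, late DAKO BAT (12 and 14 months, 4 and 5 arrays) was compared with early DAKO BAT (3 and 7 months, 5 and 4 arrays). The late group thus pools the age that the study presents as late tissue before tumor (12 months) with its tumor stage (14 months). With calls made below an adjusted p of 0.01 and beyond 1.5 in log2 fold change, 0 of 12265 genes were called higher (0%) and 0 lower (0%), while 1263 genes had an unadjusted p under 0.05 and 1 gene, *Akap8*, had an adjusted p under 0.05 (difference 0.50, SE 0.10, limma adjusted p = 0.0394). *Cdkn2a* differed by -0.56 (SE 0.57, limma adjusted p = 0.798) and *Esm1* by -0.27 (SE 0.71, limma adjusted p = 0.945). For DAKO BAT at 14 against 12 months, 0 genes were called higher (0%) and 0 lower (0%), and 825 had an unadjusted p under 0.05. Here *Cdkn2a* differed by -0.79 (SE 0.81, limma adjusted p = 0.870) and *Crabp1* by -1.89 (SE 0.91, limma adjusted p = 0.834). With array weights, whose estimation did not converge, this comparison called 336 genes higher and 214 lower. The labels say nothing on whether replicates came from separate mice beyond the sample names, so these p-values measure the spread between arrays. The 3 Cdkn2a-high arrays among the DAKO BAT labels were split between early (2) and late (1), and the groups compared by label therefore each held a mixture of the patterns described above. The expression also went against some labels elsewhere in the series. *Ucp1* was at 11.35 or more on 10 of 16 arrays labelled WAT, and all 8 arrays labelled control BAT at 7 and 12 months were among the 16 with mesothelial signal. Whether every label belongs to its array was not settled, and the counts of 0 hold for the labels as given.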

How the data were processed

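RNA of 72 samples was hybridized to Illumina MouseRef-8 v2.0 arrays. The authors deposited bead signals per probe as intensities on a linear scale, without normalization, each with a detection p-value against the negative controls of the array, and a second table of intensities that the authors had normalized between arrays. The function used for the latter, and the slide of each array, are not given in the sources used here. From the raw signals, the neqc function of limma 3.58.1 under R 4.3.3 subtracted background, equalized quantiles and gave log2 values. A detection p under 0.05 on 3 or more arrays left 18083 of 25697 probes. Of all probes, 23978 had 1 gene symbol (23962 matched to RefSeq by Entrez identifier) and 1719 had none. Of several tested probes of a gene, the one brightest on average stood for it, which gave 12265 genes.

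The arrays were chosen by *Ucp1* below 9 and *Cdkn2a* above or below 8, after leaving out 16 named arrays with mesothelial signal. The sets, the genes and the 38 gene lists were chosen with earlier results of these data known. A gene counts as set apart when the values of both sets do not overlap and the medians differ by over 1.5. For a gene that no array of a set detected, the fold is a bound: the brighter set's mean against, per array of the other set, the higher of the lowest detected signal and the gene's own signal. Genes named are the markers, those the study names, the 12 widest apart in each direction and up to 4 members per list (2 where all overlap), 121 genes in all. *Akap8*, *Gpr171*, *Mmp13*, *Vegfc*, *Nrp1*, *Prrx1*, *Snai1*, *Foxc2*, *Acly* and *Eva1b* were named as well, after their values were seen. The comparisons by label used limma's moderated test, adjusted by Benjamini-Hochberg across the 18083 probes, and a gene was called when any of its probes passed. Both procedures were checked on simulated data. The alternatives were 4 other normalizations, other filters, limits and fold minimums, other probes, variance settings, array weights, blocks, and each array left out. Each set's small number of arrays limits the precision.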

Additional observations from a re-analysis of the deposited data

Results flagged for a closer look

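Within each set, an array was singled out for a named gene when its gap to the nearest other array exceeded Dixon's 95% critical value for the range of the set. This held for 26 of 236 gene and set combinations in which the gene was above background on at least 1 array, 18 of them in the Cdkn2a-high set. Chance alone singles out about 1 in 20 groups if values spread normally, and the genes are correlated, so the flags are not independent. That rate does not hold where most arrays are at background. *Acaa1b*, *Cidec*, *Tmem45b* and *Ucp1* were above background on 1 of the 5 Cdkn2a-high arrays, and *Mmp10* and *Msln* on 1 of the 8 others. Their flags show little more than detection on 1 array. No explanation was tested.

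Of the 18 in the Cdkn2a-high set, 14 concerned the array labelled DAKO BAT 7 months replicate 3. Its log2 signal was above that of the other 4 arrays, whose range is given in parentheses, for *Acaa1b* at 6.13 (4.33 to 4.61), *Adipoq* at 8.27 (4.42 to 5.18), *Asns* at 11.43 (10.58 to 10.76), *Cidec* at 6.29 (4.21 to 4.39), *Cpt1b* at 6.46 (5.24 to 5.54), *Ifit3* at 10.27 (8.55 to 8.92), *Isg15* at 10.19 (7.36 to 7.97), *Plin4* at 8.37 (4.61 to 5.33), *Tmem45b* at 5.98 (4.23 to 4.43), *Ucp1* at 4.81 (4.26 to 4.30) and *Usp18* at 9.68 (6.82 to 7.25). It was below them for *Crabp1* at 7.15 (10.34 to 11.56), *Sox9* at 5.97 (7.54 to 8.08) and *Zeb1* at 8.73 (9.86 to 10.04). In the same set the others were *Col15a1* at 8.41 (7.01 to 7.27) on HSLAKO BAT 12 months replicate 2, *Mmp12* at 6.78 (9.57 to 10.51) on HSLAKO BAT 12 months replicate 1, *Pmp22* at 8.79 (9.44 to 9.62) on DAKO BAT 7 months replicate 4 and *Rb1* at 8.01 (7.47 to 7.55) on HSLAKO BAT 12 months replicate 2.

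Among the other Ucp1-low arrays, against the range of the other 7, there were *Col7a1* at 6.79 (5.24 to 5.78) on DAKO BAT 14 months replicate 4, *H2-DMb1* at 7.71 (8.48 to 8.96) on HSLAKO BAT 7 months replicate 1, *Mmp10* at 5.07 (4.39 to 4.67) on DAKO BAT 14 months replicate 4, *Msln* at 4.71 (4.25 to 4.36) on HSLAKO BAT 12 months replicate 4, *Phgdh* at 5.89 (5.02 to 5.41) on HSLAKO BAT 7 months replicate 2, *Prc1* at 9.36 (8.54 to 8.92) on DAKO BAT 12 months replicate 4, *S100a9* at 7.97 (4.38 to 6.01) on DAKO BAT 14 months replicate 5 and *Slc4a1* at 7.23 (4.43 to 5.51) on DAKO BAT 14 months replicate 5. *Slc4a1* and *S100a9* are markers of red blood cells and neutrophils, and both flags were on the same array.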

How the results depend on the processing

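The sets did not change with a *Ucp1* limit of 8 or 10 or a *Cdkn2a* limit of 7 or 9, and the 622 genes set apart (299 higher, 323 lower) became 619 under the stricter filter on dim probes. All 622 kept their direction under the 4 other normalizations, and under 3 of them all stayed free of overlap (296 of 299 and 254 of 323 with a common median). The runs without background correction and with an offset of 50 equalized quantiles like the main run. The order of arrays within a gene could not change there, so these runs do not check direction or overlap. Whether this holds for the authors' normalized values is not known. The counts past 1.5 were lower under 3 of the 4 normalizations, and the cause was not tested: 188 (81 higher, 107 lower) with the authors' normalized values, 255 (111 and 144) without background correction and 385 (177 and 208) with an offset of 50. With arrays scaled to a common median there were 370 higher and 188 lower, so the share of higher genes was 66.3% instead of 48.1%. A median difference over 1 gave 1238 (622 and 616) and one over 2 gave 307 (138 and 169). With the 16 mesothelial arrays kept, all of which have low *Ucp1* and fall in the other set, 185 genes were lower, against 256 higher. Leaving out 1 array gave 600 to 706 genes (287 to 347 higher, 312 to 359 lower), with the highest numbers without DAKO BAT 7 months replicate 3.

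With the mesothelial arrays kept, 10 named genes changed sign: *Cd53* (1.06), *Clec7a* (0.19), *Ctss* (0.52), *Fcgr3* (1.14), *Hoxd4* (-0.071), *Igf2r* (0.024), *Laptm5* (0.067), *Mdm2* (0.16), *Mmp12* (0.91) and *Phgdh* (-0.21). Other probes gave 61 values, of which 28 stayed within the spread inside sets, 28 moved beyond it and 5 changed sign: *Acadl* (0.021), *Clec7a* (0.04) and *Tnfrsf10b* (0.12, 0.05 and 0.24), each detected on at most 3 of the 13 arrays. *Lipe*, which overlapped, also had the other sign (0.13). Of 27 probes detected on all 13 arrays, 27 kept the sign and 9 moved, 4 to a larger size (*Gpnmb* -3.74 and -4.02, *Ndrg1* 1.47, *Rb1* -1.52) and 5 to a smaller one (*Ccng1* -0.83 and -0.91, *Cdc20* 2.04, *Mgll* -2.53, *Trp53inp1* -1.39). The other 19 that moved were not detected on all 13, among them *Gsta3* (-1.03), *Col7a1* (1.08), *Asns* (0.41), *Tnc* (0.54) and *Pparg* (-0.86 and -0.21). Under the 4 normalizations 0 of the 121 genes chosen by rule were called reversed, although 12 to 81 moved by more than the spread within sets. For genes free of overlap, the sign could not reverse in the runs that equalized quantiles.

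In the comparisons by label, late against early DAKO BAT called 0 genes under each alternative run, and 14 against 12 months called 0 under each except array weights (550 genes, 336 higher and 214 lower) and without DAKO BAT 12 months replicate 3 (*Gpr171* and *Mmp13*, 2 lower). Leaving out 1 array gave 0 to 2 genes in all, 0 higher and 0 to 2 lower. With the replicate number as a block, both comparisons called 0. Same-numbered arrays of the DAKO BAT groups deviated together in some pairs and in opposite ways in others (12 of 25 pairs with a correlation over 0.1, from -0.69 to 0.80). The groups mix the patterns described above, so these correlations cannot show whether the replicate numbers pair arrays. In the sample names, each DAKO BAT array has a different mouse number. The mouse number as a random block called 0 as well.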
